A study of Mus musculus with 7 samples.

Results

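The proteasome subunit genes were examined at their transcription start sites (TSSs) in maps of chromatin accessibility made with 3 nucleases in mouse liver. Members were taken by name from the protein-coding genes of GENCODE release M1 on the mouse genome mm9, as every symbol that begins with Psma, Psmb, Psmc or Psmd followed by a digit. This gave 40 genes of 22222 (42 gene identifiers, since Psmb9 and Psmd14 have 2 each). Of these 40, 1 is not a proteasome gene in spite of its symbol (Psmc3ip, a protein of meiotic recombination), and 3 encode chaperones that assemble the regulatory particle (Psmd5, Psmd9 and Psmd10). All samples came from male C57BL/6 mice aged 8 weeks. Benzonase and Cyanase, endonucleases that stay active in detergent, were applied to pulverized frozen liver at 0.25, 1 and 4 U, with 1 library at each amount, and the 3 libraries of each enzyme were pooled. DNase I was applied to nuclei purified from fresh liver, and the labels list 1 sample for it. Enzyme, tissue state and preparation therefore changed together, and their effects cannot be told apart.

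The proteasome is the protease that degrades proteins tagged with ubiquitin. Its barrel, the 20S core, is built of alpha rings that gate the entrance and beta rings that hold the active sites, and its cap, the 19S regulatory particle, recognises, unfolds and feeds in the substrate. Interferon replaces the catalytic beta subunits with the immunoproteasome forms, and other forms are made in the thymus and the testis. The constitutive subunits are expressed in essentially all cells, liver included, and are known to be induced together by the transcription factor Nfe2l1 when proteasome activity falls.

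The measurement was a list of hotspots, stretches where cleavage tags cluster above background, with 1 list per nuclease called on pooled tags. The Benzonase list held 60910 hotspots, the Cyanase list 57675 and the DNase I list 72286, with median widths of 652, 641 and 649 bp. The lists give positions alone, so the number of tags behind a hotspot is unknown and a hotspot is present or absent in the list as deposited. The deposited lists are longer than the hotspot sets described with the study, and which hotspots differ was not examined here. No spread between replicates can be given, and no test was made. The 95% Wilson intervals below cover counting error over genes only, and genes of 1 family are not replicates of a condition. As a check of the tissue, all 8 hepatocyte marker genes had a TSS in a hotspot of every list, and the muscle markers Myod1 and Ckm had none. Of 5 Kupffer cell and macrophage markers, 5 were marked by DNase I, 1 by Benzonase and 1 by Cyanase. Of 5 lymphocyte and leukocyte markers, 1 was marked by DNase I (Ptprc) and 0 by the others. Of 4 endothelial markers, 2 were marked by Benzonase, 2 by Cyanase and 1 by DNase I, and of 2 neuronal markers, Syn1 was marked in every list. How far such cells contributed to the hotspots described here was not tested.

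Upstream sequences were taken from mm9 for 6 genes that carry the main contrasts. Psmb5, Psmb6 and Psmb7 encode the 3 catalytic subunits and were marked by every nuclease. Psma2 and Psmc2 share their upstream stretch with a gene on the other strand. Psmb11, the thymus form, was marked by none. Each sequence is written 5′ to 3′ on the strand of the named gene and ends before the first transcribed base, and for Psma2 and Psmc2 it begins after the start of the partner gene. Capitals mark letters that match any of 6 short motifs on the strands searched, as defined with the motif counts further on.
Psmb5 (chr14:55236852-55237081, minus strand): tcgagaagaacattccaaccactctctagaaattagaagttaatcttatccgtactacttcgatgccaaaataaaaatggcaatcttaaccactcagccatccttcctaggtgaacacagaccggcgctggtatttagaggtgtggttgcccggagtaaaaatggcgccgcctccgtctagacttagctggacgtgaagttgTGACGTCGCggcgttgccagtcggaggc
Psmb6 (chr11:70338639-70338868, plus strand): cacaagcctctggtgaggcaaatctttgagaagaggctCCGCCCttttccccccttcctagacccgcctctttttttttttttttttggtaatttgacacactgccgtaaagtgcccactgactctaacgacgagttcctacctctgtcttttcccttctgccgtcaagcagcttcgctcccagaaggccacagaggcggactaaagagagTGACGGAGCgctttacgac
Psmb7 (chr2:38499608-38499837, minus strand): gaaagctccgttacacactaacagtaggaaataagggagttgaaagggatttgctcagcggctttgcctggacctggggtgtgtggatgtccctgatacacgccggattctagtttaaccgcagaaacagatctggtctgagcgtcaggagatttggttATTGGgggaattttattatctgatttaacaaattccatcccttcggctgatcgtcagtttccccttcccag
Psma2 (chr13:14705305-14705520, plus strand, up to Mrpl32): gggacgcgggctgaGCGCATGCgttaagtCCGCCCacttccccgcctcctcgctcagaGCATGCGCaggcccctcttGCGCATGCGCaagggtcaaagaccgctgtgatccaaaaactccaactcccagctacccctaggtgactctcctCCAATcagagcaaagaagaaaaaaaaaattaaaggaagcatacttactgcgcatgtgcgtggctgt
Psmc2 (chr5:21291070-21291100, plus strand, up to Dnajc2): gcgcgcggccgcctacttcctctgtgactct
Psmb11 (chr14:55243917-55244146, plus strand): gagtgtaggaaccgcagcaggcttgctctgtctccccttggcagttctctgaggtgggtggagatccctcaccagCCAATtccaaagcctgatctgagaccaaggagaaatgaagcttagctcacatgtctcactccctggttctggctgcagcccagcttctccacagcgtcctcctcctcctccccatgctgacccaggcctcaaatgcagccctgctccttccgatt
The Psmb5 stretch of 230 bases held 15 CpG dinucleotides and that of Psmb6 held 11. The Psmb7 stretch held 8. The Psmb11 stretch of the same length held 3, although its GC content of 57.4% was above the 49.1% at Psmb5.

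Nearly the whole family was marked by every nuclease. A TSS lay inside a hotspot in 38 of 40 genes (95%, 95% interval 83.5 to 98.6%) for Benzonase, for Cyanase and for DNase I, and the same 38 genes were marked in all 3 lists. Among all 22222 protein-coding genes the share was 57.6% for Benzonase, 55.9% for Cyanase, 47.5% for DNase I and 46.2% for the 3 lists together. Widening the search to 1 kb either side of a TSS added no gene (38 of 40 in each list), against 61.3%, 59.5% and 52.0% of all genes. A TSS in Benzonase and Cyanase hotspots without a DNase I hotspot occurred in 8.84% of all genes and in 0 of the 40.

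**Figure D1:**
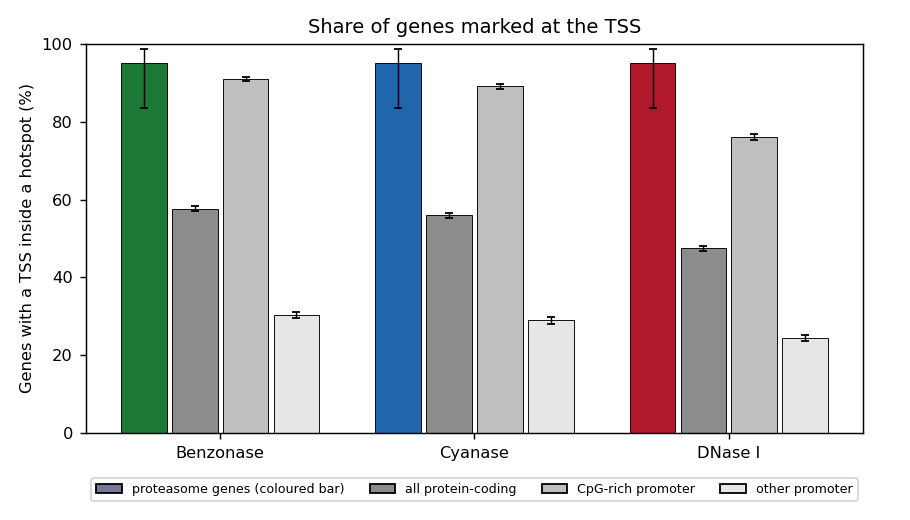
Share of genes (%, vertical axis) with a TSS inside a hotspot of Benzonase, Cyanase or DNase I. Coloured bars are the 40 genes of the family, Psmc3ip included. Greys are all protein-coding genes, those with a CpG-rich promoter and the others, and error bars are 95% Wilson intervals. The coloured bar stands at 95% for each nuclease, while the bar for all genes lies between 47.5% and 57.6%.

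The family is rich in CpG-rich promoters, the kind most often accessible in any tissue. Over the 500 bp on each side of the start, 34 of 40 genes (85%, interval 70.9 to 92.9%) had a GC content over 50% and an observed to expected CpG ratio over 0.6, against 44.9% of all genes. All 34 were marked by every nuclease. Among all CpG-rich promoters the shares were 91.1% for Benzonase, 89.1% for Cyanase, 76.1% for DNase I and 75.8% for the 3 together, so for Benzonase and Cyanase much of the distance between the family and all genes was also seen for CpG-rich promoters as a class. The 6 genes that did not pass were Psma8, Psmb6, Psmb8, Psmb10, Psmb11 and Psmd10. Of these, 4 were marked by each nuclease, against 30.4%, 28.9% and 24.3% of all other promoters. Psmb6 missed only on its GC content of 49.0%, with a CpG ratio of 0.668. Psmb10 was the poorest in CpG of the 40, with a ratio of 0.283. Over the 250 bp on each side, Psma8, Psmb6 and Psmb8 passed as well, and Psma8 was marked in no list.

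The 2 genes without a hotspot were the forms made in other tissues. Psmb11, the beta subunit of thymic epithelium, lies on the plus strand of chromosome 14 from 55244147 to 55248393, and none of the 3 lists had a hotspot anywhere in it. Its nearest hotspots lay 6784 bp (Benzonase), 6925 bp (Cyanase) and 6759 bp (DNase I) upstream of its start, and in each list that hotspot was the one over the start of Psmb5, the constitutive gene that stands next to it on the other strand. Thus, of 2 neighbouring beta subunit genes, 1 was marked at its start by every nuclease and the other by none. Foxn1, the transcription factor of thymic epithelium, was also without a hotspot at its TSS in all 3 lists.

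Psma8, the alpha subunit of the testis proteasome, was the other gene without a hotspot, again in all 3 lists and over its whole length of 56149 bp. Its nearest hotspots were 22607, 22603 and 22529 bp upstream for Benzonase, Cyanase and DNase I. Of 2 germ cell markers, Sycp3 was marked by Benzonase and Cyanase and Ddx4 by Cyanase, while DNase I marked neither. Absence from a list means that no hotspot was called there, and lower accessibility was not measurable here.

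The extent of the hotspots was drawn for each gene by role in the particle. All 7 constitutive alpha genes (Psma1 to Psma7), all 7 constitutive beta genes (Psmb1 to Psmb7), the 3 immunoproteasome genes, all 6 ATPases of the 19S base (Psmc1 to Psmc6), which unfold the substrate, all 11 non-ATPase subunits of the 19S and the 3 chaperones had a hotspot over the start in each list.

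**Figure D2:**
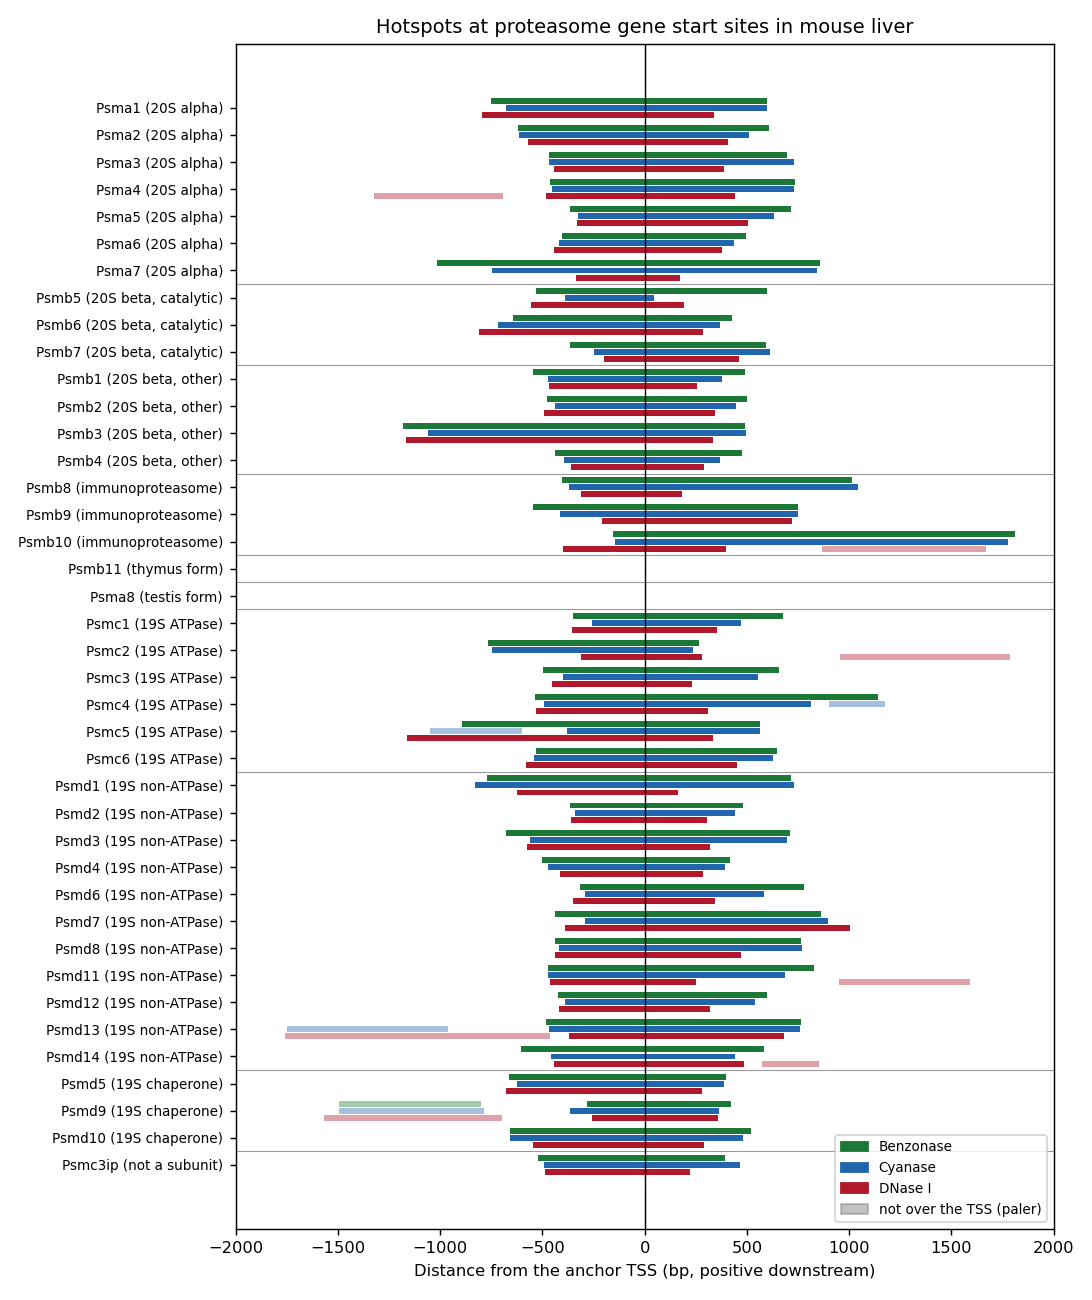
Hotspots within 1 kb of the anchor TSS of each gene of the family, drawn to scale by distance from that TSS (horizontal axis in bp, positive downstream). Each gene has 3 rows, for Benzonase (green), Cyanase (blue) and DNase I (red), with paler bars for hotspots that do not cover the TSS. Rows are grouped by role, Psmb11 and Psma8 are empty, and the green and blue bars of most genes run farther to the right than the red bar.

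Position was measured from 1 anchor TSS per gene, the start of the coding transcript with the longest coding sequence. Around it the median Benzonase hotspot of the 38 genes was 1173 bp wide (quartiles 1029 and 1300, range 708 to 1967). The median Cyanase hotspot was 1051.5 bp wide (quartiles 877 and 1194.5, range 434 to 1924), and the median DNase I hotspot 828 bp (quartiles 704 and 931.5, range 495 to 1501). All protein-coding genes with such a hotspot had medians of 1251, 1158 and 853 bp, and those with CpG-rich promoters 1341, 1244 and 883 bp. The medians of the family were thus below both backgrounds for each nuclease, inside the quartiles of all genes.

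**Figure D3:**
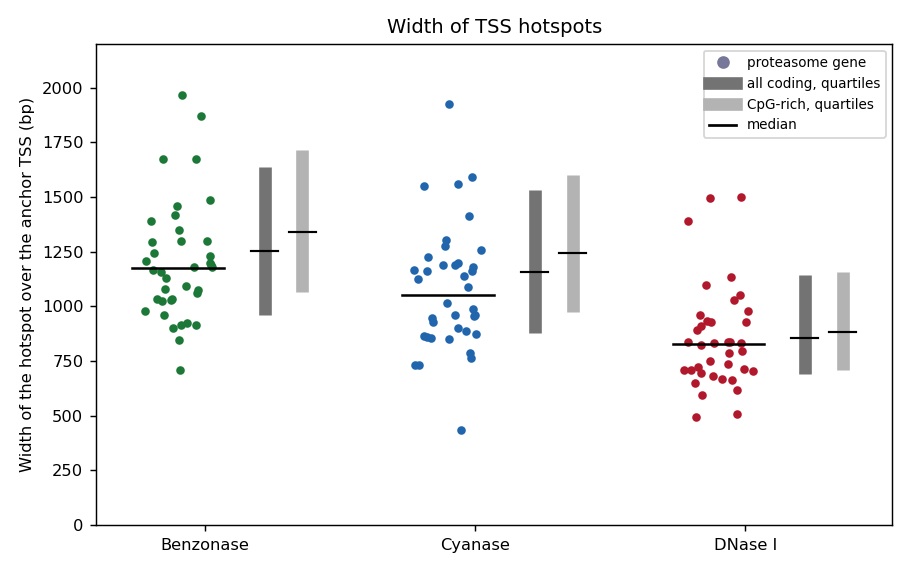
Width in bp (vertical axis) of the hotspot over the anchor TSS for each nuclease. Points are the 38 marked genes of the family, Psmc3ip included, and black lines are medians. Dark and light bars span the quartiles of all protein-coding genes and of those with CpG-rich promoters. The family's medians are 1173, 1051.5 and 828 bp, and the points of DNase I lie lowest.

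The enzymes differed less upstream of the start than downstream of it. Hotspots reached a median of 500 bp (Benzonase), 455.5 bp (Cyanase) and 445 bp (DNase I) upstream, and 603, 559 and 334.5 bp downstream. The median centre accordingly lay at 49.5 bp for Benzonase and 48 bp for Cyanase, downstream of the TSS, and at -64.5 bp, upstream of it, for DNase I. Over all genes these centres were 55, 38 and -63.5 bp.

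Within single genes, the Benzonase hotspot reached farther downstream than the DNase I hotspot in 36 of 38 genes, by a median difference of 217.5 bp, against 88.5% of all genes with both. The exceptions were Psmc2 (266 against 281 bp) and Psmd7 (863 against 1003 bp), a subunit of the 19S lid. The Cyanase hotspot reached farther downstream than that of DNase I in 34 of 38 genes, by a median of 154.5 bp, against 85.2%. In total width, Benzonase exceeded DNase I in 35 of 38 genes (median difference 277.5 bp), against 87.9%, and Cyanase exceeded DNase I in 33 of 38 (167.5 bp), against 82.4%. Benzonase exceeded Cyanase in 33 of 38 (93.5 bp), against 79.0%. Each of these shares was near its background, so the pattern was one of the 3 lists as a whole.

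**Figure D4:**
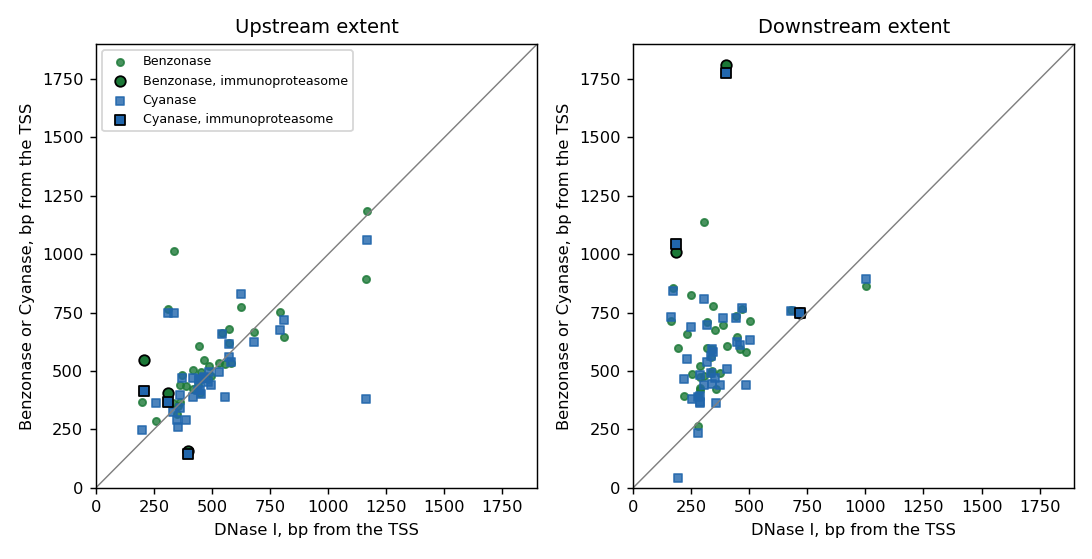
Distance in bp from the anchor TSS to the upstream edge (left) and downstream edge (right) of the hotspot, with DNase I on the horizontal axis, Benzonase (circles) or Cyanase (squares) on the vertical axis and a grey line where both are equal. Symbols with a black rim are the 3 immunoproteasome genes. Upstream the points lie on both sides of the line, and downstream 36 of 38 circles lie above it.

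The stretch covered by all 3 hotspots at once, called the shared core here, had a median of 782.5 bp and made up a median of 71.4% of the stretch covered by any of them. Over all genes marked in the 3 lists that share was 63.9%, and over CpG-rich ones 62.1%. Within the family it ran from 24.7% at Psmb10 to 84.4% at Psmd13, counting only the hotspots over the anchor TSS. Psmd13 also had DNase I and Cyanase hotspots of 1299 and 784 bp that began 1761 and 1748 bp before its start. With hotspots within 150 bp joined, its DNase I hotspot was 2442 bp wide, against 1246 bp for Benzonase and 1226 bp for Cyanase. In bp, the shortest core was 434 bp, at Psmb5, and the longest 1394 bp, at Psmb3.

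The large groups of subunits overlapped in width. The 7 constitutive alpha genes, which form the outer rings, had Benzonase hotspots of 899 to 1871 bp (median 1199), Cyanase hotspots of 857 to 1592 bp (median 1180) and DNase I hotspots of 508 to 1133 bp (median 838). The narrowest Benzonase and Cyanase hotspots of this group were those of Psma6, and the widest those of Psma7. The 6 ATPase genes had 1027 to 1676 bp (median 1168.5), 731 to 1305 bp (median 970.5) and 593 to 1497 bp (median 772.5) in the same order, with Psmc1 the narrowest and Psmc4 the widest by Benzonase and by Cyanase. The 11 non-ATPase genes had 845 to 1488 bp (median 1206), 786 to 1560 bp (median 1163) and 666 to 1392 bp (median 788). In this group Psmd2 was narrowest in every list, Psmd1 was widest by Benzonase and Cyanase, and Psmd7 was widest by DNase I. The ranges of these 3 groups overlapped in every list.

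At Psmd1, a scaffold of the 19S base, the Benzonase and Cyanase hotspots ran 715 and 730 bp downstream and the DNase I hotspot 162 bp, the shortest downstream reach of DNase I in the family. At Psmc4 the downstream reach was 1139, 810 and 307 bp, and the Cyanase list had a second hotspot of 273 bp that began 903 bp downstream, a position still inside the Benzonase hotspot. At Psmd14, the deubiquitinase of the 19S lid, the widths over the start were 1189, 902 and 932 bp. A second DNase I hotspot of 281 bp began 573 bp downstream there. With hotspots within 150 bp joined, the DNase I hotspot of Psmd14 was 1298 bp wide, more than that of Benzonase. At Psmd4, a ubiquitin receptor, the widths were 923, 864 and 703 bp. The 3 chaperone genes had Benzonase hotspots of 1062 bp (Psmd5), 1182 bp (Psmd10) and 708 bp (Psmd9). Psmc3ip, the gene that is not of the proteasome, had hotspots of 914, 962 and 710 bp, inside the range of the subunit genes.

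The 3 catalytic genes differed in where the hotspots of each nuclease ended. At Psmb5, which encodes the chymotrypsin-like active site, the Benzonase hotspot was 1131 bp wide, the Cyanase hotspot 434 bp and the DNase I hotspot 750 bp. The Cyanase hotspot ended 43 bp downstream of the start, against 599 bp for Benzonase and 193 bp for DNase I. It was the narrowest Cyanase hotspot over an anchor TSS in the family. At Psmb6, the caspase-like site, the widths were nearly equal at 1075, 1088 and 1098 bp, and all 3 hotspots lay mostly upstream (646, 719 and 811 bp upstream of the start). At Psmb7, the trypsin-like site, the widths were 961, 860 and 661 bp and the hotspots lay mostly downstream, to 594, 611 and 460 bp.

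The immunoproteasome genes were marked in this liver although no inflammatory treatment is given in the labels. Psmb8 had Benzonase and Cyanase hotspots of 1418 and 1411 bp and a DNase I hotspot of 495 bp. That was the narrowest DNase I hotspot over an anchor TSS in the family. The downstream edges at Psmb8 stood at 1011, 1042 and 183 bp. Psmb10 had the widest Benzonase and Cyanase hotspots of the family, 1967 and 1924 bp, which began only 156 and 146 bp upstream and ran 1810 and 1777 bp downstream, across much of a gene of 2665 bp. The DNase I list had 2 hotspots there. One of 797 bp was centred on the start and reached 398 bp upstream, and one of 799 bp lay from 869 to 1667 bp downstream. Psmb9 was the most alike between nucleases, with widths of 1296, 1161 and 930 bp and downstream edges of 748, 747 and 720 bp. The Benzonase centres were 302.5 bp at Psmb8, 100.5 bp at Psmb9 and 827 bp at Psmb10, all downstream of the start. Set beside the constitutive subunits they replace, the 3 immunoproteasome genes had wider hotspots with Benzonase (1296 to 1967 bp against 961 to 1131 bp) and with Cyanase (1161 to 1924 bp against 434 to 1088 bp), without overlap of the ranges. With DNase I the ranges overlapped, at 495 to 930 bp against 661 to 1098 bp. Among all protein-coding genes the medians were 1251 bp for Benzonase and 1158 bp for Cyanase, and Psmb9 was close to both. The constitutive genes Psmb3 (1674 and 1552 bp) and Psma7 (1871 and 1592 bp) also lay inside the immunoproteasome ranges. So did Psma1, Psmc4, Psmd1, Psmd3, Psmd7 and Psmd11, and such widths were thus not particular to the immunoproteasome genes. With 3 genes in each set and 1 list per nuclease, the comparison is a description and was not tested.

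By the mean width over the 3 lists, Psmb3 (1576 bp), Psmb10 (1563 bp) and Psma7 (1324 bp) had the widest hotspots. Psmb3, a non-catalytic beta subunit, had hotspots of 1674, 1552 and 1501 bp that extended 1183, 1059 and 1166 bp upstream, and its mean centre of -349 bp was the farthest upstream of the family, followed by Psmb6 at -182 bp. Psma7 was wide in the Benzonase and Cyanase lists alone (1871 and 1592 bp) and narrow in the DNase I list (508 bp). Among the family's DNase I hotspots over an anchor TSS, only that of Psmb8 was narrower. The centres farthest downstream were those of Psmb10 (547.5 bp) and Psmd7 (274 bp). The narrowest were Psmd9 (708, 730 and 616 bp, mean 685 bp), Psmd2, a large scaffold subunit of the 19S (845, 786 and 666 bp, mean 766 bp), and Psmb5 (mean 772 bp).

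More than 1 hotspot within 1 kb of the anchor TSS occurred in 1 of 40 genes for Benzonase, 4 for Cyanase and 7 for DNase I, against 5.88%, 6.27% and 10.1% of all genes. Psmd9 had a further upstream hotspot in every list, 695, 712 and 870 bp wide, beginning 1494, 1496 and 1567 bp before its start. At Psmc5 a single Benzonase hotspot of 1457 bp corresponded to 2 Cyanase hotspots of 449 and 947 bp and to 1 DNase I hotspot of 1497 bp. Psmc2 and Psmd11 had a second DNase I hotspot that began 956 and 948 bp downstream, where the other lists had no second hotspot within 1 kb. These hotspots ran on to 1787 and 1592 bp, mostly beyond that limit. Each gene also held a Benzonase and a Cyanase hotspot over 1 kb from its start, and whether those overlap the DNase I hotspots was not examined.

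Farther inside the genes, over 1 kb from the anchor TSS, the 40 genes held 9 Benzonase, 9 Cyanase and 24 DNase I hotspots. At least 1 such hotspot was present in 8 genes for Benzonase, 7 for Cyanase and 10 for DNase I, against 38.0%, 36.4% and 40.3% of all genes, whose lengths were not matched. DNase I had more of them than Benzonase in 10 genes, against 22.4% of all genes, and fewer in 3 (Psmc3, Psmc4 and Psmd9), against 12.3%. Much of the DNase I total came from Psmb7, with 8 hotspots against 2 in each of the other lists, and from Psmd11, with 4 against 1 and 1.

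Of the 40 genes, 7 (17.5%, interval 8.75 to 31.9%) had the start of a coding gene on the other strand within 1 kb upstream, against 8.45% of all genes. The pairs were Psmc2 with Dnajc2 (32 bp apart), Psmb9 with Tap1 (38 bp), Psmc5 with Ftsj3 (75 bp), Psma7 with Ss18l1 (76 bp), Psmd13 with Sirt3 (99 bp), Psma2 with Mrpl32 (217 bp) and Psmd10 with Atg4a (218 bp). Tap1 encodes the peptide transporter that loads class I molecules, and a further Tap1 transcript starts inside Psmb9. In each list, each of these 7 hotspots held both starts, so a hotspot there cannot be assigned to 1 gene of the pair. The same holds for Psma4, whose TSS hotspot in each list also held the start of AY074887, a coding gene that begins on the other strand inside Psma4. At Psmc2 and Dnajc2, whose intervening 31 bases are printed above, the Benzonase and Cyanase hotspots extended 767 and 749 bp to the Dnajc2 side and 266 and 236 bp into Psmc2, and the DNase I hotspot 311 and 281 bp. At Psma2 and Mrpl32 the hotspots were more even, from 621, 615 and 571 bp upstream to 607, 509 and 405 bp downstream.

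The sequence from 250 bp before to 50 bp after the anchor TSS was searched for 6 short motifs. They were the core of the antioxidant response element bound by Nfe2l1 and Nfe2l2 (TGACNNNGC), the CCAAT box (CCAAT), an ETS factor motif (CCGGAAG), the core of the motif of nuclear respiratory factor 1 (GCATGCGC), the Sp1 GC box (GGGCGG), each on both strands, and the TATA box (TATAAA) on the sense strand. Nuclear respiratory factor 1 is a different protein from Nfe2l1, although both have been called Nrf1. Sites of different motifs overlapped in 2 places, at Psmd9 (response element and GC box) and at Psma8 (ETS motif and GC box). A match is a string of letters, and binding was not measured here.

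The response element core was found in 7 of 40 promoters (17.5%), namely Psmb2, Psmb5, Psmb6, Psmc6, Psmd7, Psmd9 and Psmd12, against 12.7% of all promoters and 14.7% of CpG-rich ones. The count depended on the window: from 500 bp before to 100 bp after the start it was 16 of 40, against 21.9% of all promoters. It began 47 bp before the start of Psmb5 and 38 bp before that of Psmb6, in capitals in the printed sequences, and it was not found at Psmb7. These distances are from the anchor TSS, and in both genes another annotated transcript starts farther upstream, so the printed sequence ends 20 bp before the anchor. It began 31 bp before Psmd9, 108 bp before Psmd7, 203 bp before Psmd12 and 232 bp before Psmc6, and at Psmb2 it began 1 bp before the start and ran across it. The ETS motif was found in 13 promoters (32.5%, interval 20.1 to 48.0%), against 11.0% of all promoters and 18.9% of CpG-rich ones. By role, it was present in 4 of 6 ATPase genes (Psmc1, Psmc2, Psmc3 and Psmc6), in 6 of 11 non-ATPase genes of the 19S, in 1 of 7 constitutive alpha genes (Psma6) and in 0 of 7 constitutive beta genes. The other two matches were at Psma8 and Psmc3ip. Within the 34 CpG-rich members the motif was present in 12 (35.3%, interval 21.5 to 52.1%).

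The CCAAT box was found in 17 promoters (42.5%), against 37.7% and 36.9%, and in 26 against 57.1% of all promoters in the longer window. In the shorter window it occurred in 4 of 7 constitutive alpha genes, 4 of 7 constitutive beta genes, 3 of 6 ATPase genes and 3 of 11 non-ATPase genes. The GC box was found in 26 promoters (65%), against 44.8% of all and 74.2% of CpG-rich promoters, and in 22 of the 34 CpG-rich members (64.7%). The core of the nuclear respiratory factor 1 motif was found in 2 (5%), against 3.35% and 5.95%, and in 4 against 4.23% of all promoters in the longer window. It occurred 4 times between Psma2 and Mrpl32, where 2 of the matches overlap in a palindrome, and once at Psmc5. The TATA box was found in 5 (12.5%), against 9.05% and 3.58%, and the nearest to a start was 73 bp before Psmb4. In the 38 marked genes, every match lay inside the shared core: 7 of 7 for the response element, 26 of 26 for the CCAAT box, 14 of 14 for the ETS motif, 5 of 5 for nuclear respiratory factor 1, 50 of 50 for the GC box and 4 of 4 for the TATA box. The core held the whole window searched in all of these genes except Psmb5, Psmb7, Psmb9 and Psmb10. The median edges of the core lay 411 bp before and 334.5 bp after the start. These counts were therefore nearly fixed in advance by the window, and no conclusion about the motifs is drawn from them.

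**Figure D5:**
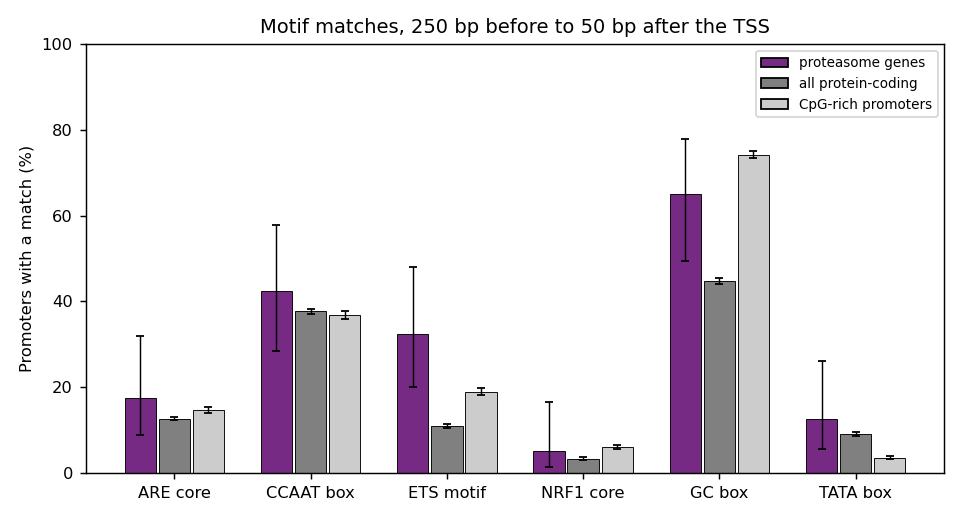
Share of promoters (%, vertical axis) with at least 1 match to each motif from 250 bp before to 50 bp after the anchor TSS. Bars are the 40 genes of the family, Psmc3ip included (purple), all protein-coding genes (dark grey) and those with CpG-rich promoters (light grey), with 95% Wilson intervals. For the ETS motif the bars stand at 32.5%, 11.0% and 18.9%.

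Other genes of the pathway were also marked. Of 19 further genes, all 19 had a TSS in a hotspot of each list, against 46.2% of all genes and 75.8% of those with CpG-rich promoters. They were 4 activators (Psme1 to Psme4), the inhibitor Psmf1, 5 chaperones of the 20S core (Psmg1 to Psmg4 and Pomp), 5 genes for proteins that associate with the 19S (among them the ubiquitin receptor Adrm1 and the deubiquitinases Usp14 and Uchl5), Nfe2l1, Nfe2l2 and Ddi2, which activates Nfe2l1, and the ubiquitin gene Ubb. Of these, 14 had a CpG-rich promoter, against 44.9% of all genes. Paaf1, a 19S assembly factor on the same list, was not analysed here. Psmf1 was left out of the widths, since its hotspots covered another start than its anchor TSS. For the others the median TSS hotspots were 1365, 1304 and 967.5 bp wide for Benzonase, Cyanase and DNase I. The 38 marked genes of the family, Psmc3ip and the chaperones included, had medians of 1173, 1051.5 and 828 bp. Among the further pathway genes, Psme3 had the narrowest DNase I TSS hotspot at 346 bp, with Benzonase and Cyanase hotspots of 1330 and 1281 bp. Nfe2l2 had the widest Benzonase TSS hotspot of these at 2453 bp.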

How the data were processed

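Per the file headers and the methods, the authors used Eland or Bowtie for alignment to mm9, combined the libraries made with one nuclease, and identified hotspots with input adjustment, an allowed false discovery rate of 0% and a minimum tag density at its mode. The DNase I header names a pool, and the study describes its DNase I tags as combined from replicates, although the labels list 1 sample. The deposited values used are the start and end of each hotspot, and tag counts per hotspot were not analysed here. Positions were compared with GENCODE release M1 on mm9, with genes merged by symbol. A gene was marked when any TSS of a protein-coding transcript lay inside a hotspot by at least 1 bp. Widths, edges and centres refer to the hotspot over the anchor TSS. CpG content used 500 bp on each side of the anchor TSS and motifs 300 bp. Intervals are 95% Wilson intervals.

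The members and lists were chosen with earlier results of these data known. Genes were named by rule when they were unmarked, immunoproteasome or catalytic genes, the 3 widest and 3 narrowest, the 2 farthest centres on each side, the extreme cores or divergent pairs. Not every width and edge of these genes is printed. Other genes, named as exceptions or with a motif or second hotspot, and the CpG-rich background for motifs were chosen after their values were seen. Hotspot scoring and the motif search were tested on simulated data with planted sites. The software was pandas 2.3.3, numpy 2.4.6, pysam 0.24.0, scipy 1.17.1 and matplotlib 3.10.9 under Python 3.11.15. Of the other pathway genes planned, 1 is not reported here.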

Additional observations from a re-analysis of the deposited data

How the results depend on the processing

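Of 43 alternative values, 40 stayed near the main value and 3 moved, all in the motif counts. With a window from 500 bp before to 100 bp after the start, the response element core was found in 16 members in place of 7, the CCAAT box in 26 in place of 17 and the core of the nuclear respiratory factor 1 motif in 4 in place of 2. The longer window holds more letters, and in it the shares of all promoters were 21.9%, 57.1% and 4.23%. The number of marked genes was 38 for each nuclease under other choices of start site and distance, 37 without Psmc3ip, Psmb11 and Psma8, and 38, 37 and 36 (Benzonase, Cyanase, DNase I) when hotspots below the first width quartile of their list were removed, which took out Psmb5 (Cyanase) and Psma7 and Psmb8 (DNase I). Median widths and centres kept their direction with the 5′-most TSS and with hotspots within 150 bp joined. Over the 250 bp on each side, 37 promoters were CpG-rich, among them that of Psma8, which no list marked. No library could be left out in turn, because each list was called on pooled tags. No paired analysis was possible because the lists carry no replicates. The depth behind single hotspots is unknown, so an absent hotspot sets no limit on accessibility.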
